A study of Mus musculus with 15 samples.

Results

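The 5 CC chemokine genes Ccl3, Ccl4, Ccl6, Ccl9 and Ccl5 and the receptor gene Ccr1 were followed in mouse ear tissue under sterile inflammation. They were taken by gene symbol. All 6 were found among the 48795 genes of the count tables, and all 6 were among the 14991 genes left by the filter on low counts. Ears of female mice, 5 weeks old, gave 15 libraries of polyadenylated RNA. The Control group had 5 libraries, PMA_ethanol had 4 and PMA_1002 had 6. The irritant PMA (phorbol 12-myristate 13-acetate) switches on protein kinase C, and every library carries the label of the PMA ear inflammation model. The label PMA_1002 names PMA and the innate defense regulator peptide 1002, a synthetic host defence peptide, but no ethanol, so peptide and vehicle cannot be told apart. The sources used here give no strain, dose, time or treatment of the Control ears. Nothing in the labels says that libraries came from separate mice, so p-values cover only the spread among these libraries, which may be technical.

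CC chemokines are small secreted proteins that bind G protein-coupled receptors on leukocytes and direct their movement along a gradient. Ccl3 and Ccl5 activate Ccr1, Ccl4 is a close relative of Ccl3, and Ccl6 and Ccl9 are rodent chemokines that act through Ccr1. Ccr1 is carried by neutrophils, monocytes and macrophages, and in inflamed skin these ligands are made by leukocytes and, in part, by resident cells.

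The 5 ligand genes form one cluster on chromosome 11 of GRCm38. Ccl5 (ENSMUSG00000035042) spans 83525778 to 83530518, Ccl9 (ENSMUSG00000019122) 83572919 to 83578636, and Ccl6 (ENSMUSG00000018927) 83587882 to 83593087. Ccl3 (ENSMUSG00000000982) spans 83647844 to 83649355, and Ccl4 (ENSMUSG00000018930) 83662584 to 83664683. Ccl4 lies on the plus strand and the other four on the minus strand. Ccr1 (ENSMUSG00000025804) lies apart from them on the minus strand of chromosome 9, from 123962124 to 123968692. In GENCODE M21 no other gene overlaps Ccl3, Ccl4, Ccl5, Ccl9 or Ccr1. The noncoding gene E230016K23Rik overlaps Ccl6 on the other strand. Since the strand setting of the counting is not given, its reads and those of Ccl6 cannot be told apart with certainty.

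The 250 bases before the start were compared for Ccl3, Ccl9 and Ccl6, which lie side by side yet changed by very different folds. RefSeq promoters on GRCm38.p6 were found for 4 of the 6 genes. Capitals mark matches on either strand to the NF-kB motif, searched as GGGRNNYYCC, or to the AP-1 motif TGANTCA. Here R is A or G, Y is C or T, and N is any base. The C/EBP motif (TTGCNNAA) had no match in these windows. Each sequence reads 5′ to 3′ on the minus strand of the chromosome.
Ccl3, chr11:83649379-83649628: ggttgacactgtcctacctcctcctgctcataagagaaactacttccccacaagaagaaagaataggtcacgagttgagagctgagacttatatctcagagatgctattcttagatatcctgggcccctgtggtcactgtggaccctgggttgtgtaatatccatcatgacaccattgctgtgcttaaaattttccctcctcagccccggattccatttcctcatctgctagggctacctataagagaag
Ccl9, chr11:83578637-83578886: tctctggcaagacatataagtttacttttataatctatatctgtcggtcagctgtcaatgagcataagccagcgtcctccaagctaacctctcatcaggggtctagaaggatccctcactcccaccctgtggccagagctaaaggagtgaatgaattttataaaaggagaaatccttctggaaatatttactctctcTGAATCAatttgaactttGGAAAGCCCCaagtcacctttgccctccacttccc
Ccl6, chr11:83593088-83593337: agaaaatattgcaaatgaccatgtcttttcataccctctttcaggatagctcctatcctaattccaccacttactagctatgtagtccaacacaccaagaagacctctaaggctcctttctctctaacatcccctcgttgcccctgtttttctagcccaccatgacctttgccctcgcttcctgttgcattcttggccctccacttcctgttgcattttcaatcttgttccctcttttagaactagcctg
The Ccl9 window held an AP-1 match from base 53 to base 47 before the start and an NF-kB match from base 35 to base 26. The Ccl3 and Ccl6 windows held neither as spelled here. In Ccr1 the window held 1 NF-kB match, GGGAGGCTCC, from base 74 to base 65. Among 32851 RefSeq promoters, 7.25% held the NF-kB motif, 6.75% the AP-1 motif and 9.56% the C/EBP motif in the same 250 bases. A match is a string of letters and not a shown binding site, and a window without one says nothing about the factor.

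Related transcripts can lose reads that map to several positions, so the sequence shared within the set was measured. Ccl6 and Ccl9, the closest pair, were 72.9% identical over 1327 aligned bases, and their longest shared run was 25 bases. Ccl3 and Ccl4 were 68.7% identical over 629 bases, with a longest shared run of 9 bases. The sources used here give no read length.

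Reads in genes ran from 2656680 to 28585995 per library, and 16% to 20.1% of all reads had several positions and were counted in no gene. Levels below are in CPM, reads scaled to a common library size, on TMM-scaled library sizes. A gene was called changed where the two-sided edgeR quasi-likelihood test gave a Benjamini-Hochberg adjusted p under 0.05 over all 14991 genes. The median log2 fold change of all genes was -0.07 for PMA_ethanol versus Control, 0.03 for PMA_1002 versus PMA_ethanol and -0.03 for PMA_1002 versus Control. Markers of keratinocytes, cartilage and skeletal muscle, which an ear holds, were read in all libraries. Summed keratinocyte markers moved opposite to the 6 genes. The sum ran from 18759 to 24570 CPM in Control, 10932 to 14421 under PMA_ethanol and 21320 to 24520 under PMA_1002. Krt10 was its largest part, at means of 13319, 6210 and 13149 CPM. Of these 6 markers, 4 fell and Dsg3 rose with PMA_ethanol (edgeR log2 fold change 2.22, adjusted p = 3.62e-10). Between the PMA groups 5 rose and Dsg3 fell (-0.58, edgeR adjusted p = 0.00221). Their part in the results was not tested. Summed hair follicle markers ran from 12 to 3269 CPM and varied widely within each group. With the mean log2 CPM of these markers as a covariate, each of the 6 genes kept its call in all 3 comparisons. Under the main scaling, 4876 genes rose and 5382 fell with PMA_ethanol, 2553 rose and 2691 fell from PMA_ethanol to PMA_1002, and 4252 rose and 3998 fell from Control to PMA_1002. Upper-quartile scaling gave 3682 and 7262, 3432 and 2118, and 3079 and 5811, and scaling by total reads 3690 and 7172, 3916 and 1897, and 3322 and 5283. These scalings moved the median log2 fold change of all genes by at most 0.24 in either direction (-0.24 and -0.23, 0.08 and 0.11, -0.16 and -0.12), less than any change of the 6 genes.

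All 6 genes rose from Control to PMA_ethanol, were lower in PMA_1002 than in PMA_ethanol, and stayed above Control in PMA_1002. Over all genes, 32.5% were called higher and 35.9% lower in PMA_ethanol than in Control. In PMA_1002, 18% were called lower and 17% higher than in PMA_ethanol, and 28.4% higher and 26.7% lower than in Control. The full sequence of 3 calls was met by 13.6% of genes. Ccl3, Ccl4 and Ccl5 had Control means under 1 CPM and passed the filter on low counts through the PMA groups, so some rise was built into their being tested. The 3 comparisons share libraries and are not independent of each other. In whole ears, fewer cells of a type and less RNA per cell cannot be told apart.

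**Figure D1:**
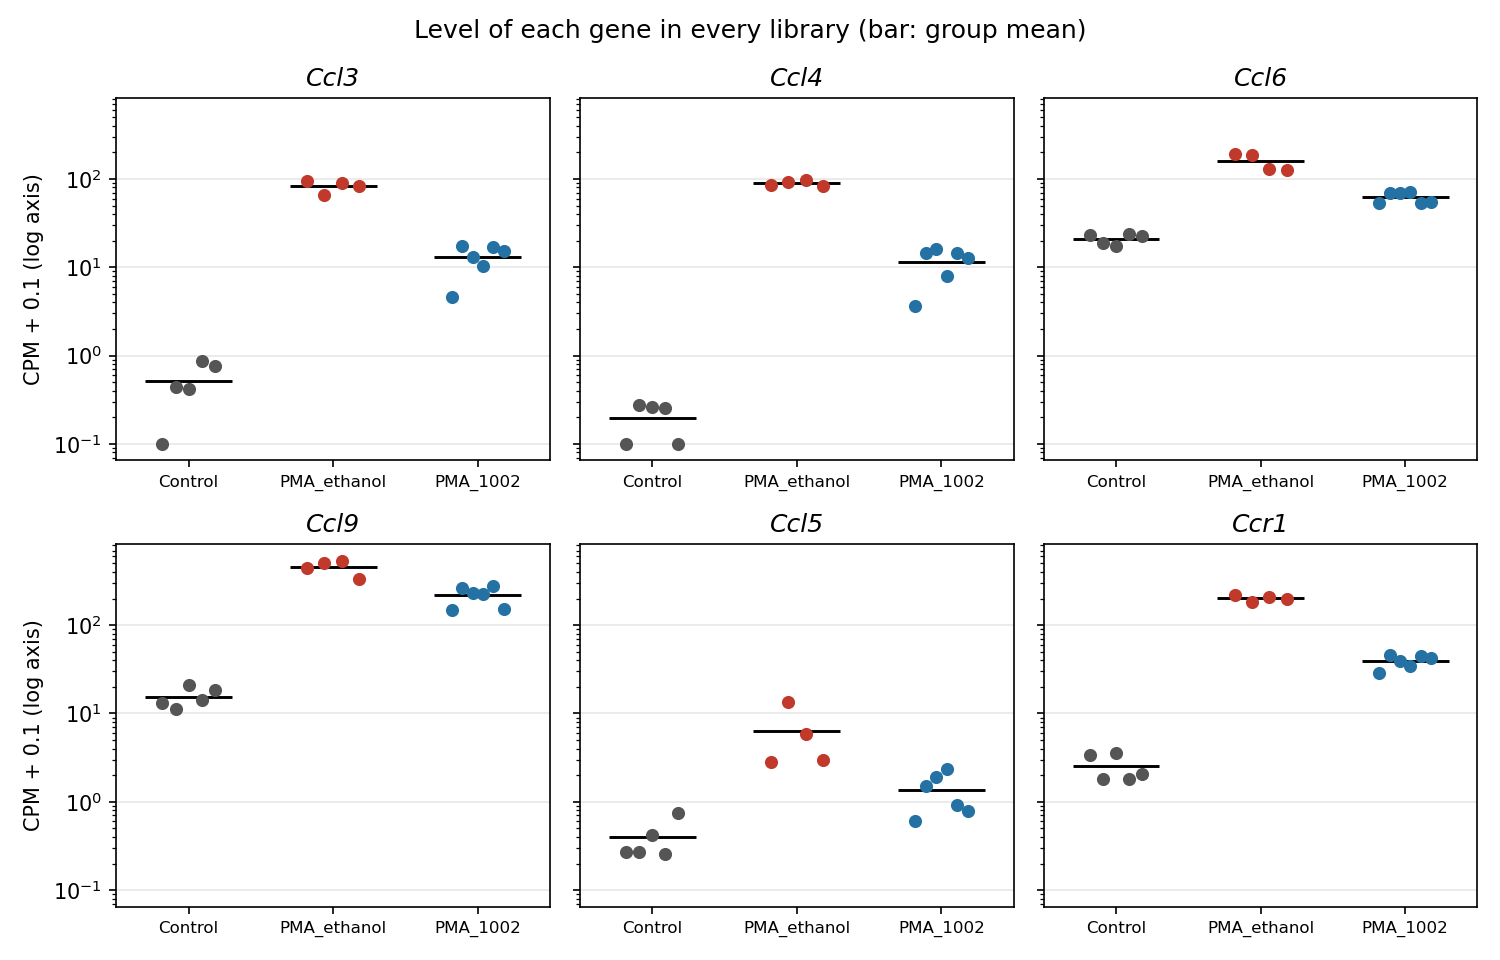
CPM (with 0.1 added, log axis) of the 6 genes in each library, by group, with bars at the group means. PMA_ethanol libraries lie above all Control libraries in every panel, and PMA_1002 libraries lie between them except for Ccl5, where 1 Control library reaches into the PMA_1002 range.

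Ccl3, a ligand of Ccr1 released by activated myeloid cells, was close to the detection limit in Control ears. It had 0, 0.344, 0.321, 0.771 and 0.656 CPM in Control libraries 1 to 5, which is 15 reads in all. In PMA_ethanol libraries 1 to 4 it stood at 94.1, 65.7, 88.8 and 83 CPM. PMA_1002 libraries 1 to 6 had 4.48, 17.2, 13, 10.3, 16.7 and 15.1 CPM. No groups overlapped, and PMA_1002 library 1 was the lowest of its group. Ccl3 rose with PMA_ethanol by 7.60 on the log2 scale (SE 0.444, edgeR adjusted p = 1.12e-09). It fell by 2.68 from PMA_ethanol to PMA_1002 (SE 0.276, edgeR adjusted p = 4.18e-06). PMA_1002 remained 4.93 above Control on that scale (SE 0.46, edgeR adjusted p = 5.24e-07).

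Ccl4, the chemokine encoded next to Ccl3, had the fewest Control reads. Control libraries 2, 3 and 4 held 1, 2 and 1 reads (0.172, 0.16 and 0.154 CPM), and libraries 1 and 5 held none. PMA_ethanol libraries 1 to 4 had 86.1, 92.7, 96.2 and 83.7 CPM, a spread of 6.47% (SD as a share of the mean). PMA_1002 libraries 1 to 6 had 3.57, 14.3, 15.8, 7.83, 14.4 and 12.7 CPM, a spread of 41.4%. The 3 groups did not overlap, and PMA_1002 libraries 1 and 4 were the lowest of theirs. The fitted log2 changes were 9.52 for PMA_ethanol versus Control (SE 0.512, edgeR adjusted p = 4.08e-10) and -2.96 for PMA_1002 versus PMA_ethanol (SE 0.272, edgeR adjusted p = 1.39e-06). For PMA_1002 versus Control the change was 6.56 (SE 0.566, edgeR adjusted p = 2.2e-07).

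The size of these rises is limited by the few Control reads. Pooled over libraries, the ratio of PMA_ethanol to Control was 823 for Ccl4 (exact 95% binomial interval 321 to 3022) and 186 for Ccl3 (113 to 333). The ratio of PMA_1002 to Control was 111 for Ccl4 (43.3 to 409) and 34.1 for Ccl3 (20.6 to 61.2). These intervals cover counting error only, and pooling gives deeper libraries more weight. Those of the 2 genes overlap in each group, in PMA_ethanol only from 321 to 333. Such overlap is not a test of whether the 2 genes rose equally.

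Ccl6 and Ccl9 differed from that pair in being expressed in Control ears. Ccl6, a Ccr1 ligand known from macrophages, had 23.2, 18.8, 17.1, 23.6 and 22.3 CPM in Control libraries 1 to 5. It had 194, 189, 129 and 127 CPM in PMA_ethanol libraries 1 to 4, where libraries 1 and 2 were above libraries 3 and 4. PMA_1002 libraries 1 to 6 had 53.1, 69.8, 70, 70.5, 52.8 and 54.6 CPM. The groups did not overlap. Ccl6 had the smallest rise of the 6 genes, 2.94 on the log2 scale (SE 0.155, edgeR adjusted p = 7.38e-11). It fell by 1.38 with PMA_1002 (SE 0.138, edgeR adjusted p = 1.39e-06), to 1.56 above Control (SE 0.144, edgeR adjusted p = 1.79e-07).

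Ccl9, a Ccr1 ligand made by macrophages and other myeloid cells, had the highest mean level per kilobase of exon of the 6 in both PMA groups, 149 and 71.3 CPM per kilobase. Control libraries 1 to 5 had 13.2, 11, 20.7, 14 and 18.4 CPM. PMA_ethanol libraries 1 to 4 had 446, 505, 537 and 333 CPM, and PMA_1002 libraries 1 to 6 had 148, 265, 232, 226, 279 and 152 CPM. All PMA_1002 libraries were below the lowest PMA_ethanol library, with a gap from 279 to 333 CPM. Ccl9 rose by 4.86 on the log2 scale with PMA_ethanol (SE 0.244, edgeR adjusted p = 1.6e-10) and fell by 1.07 with PMA_1002 (SE 0.199, edgeR adjusted p = 0.000738). PMA_1002 stayed 3.79 above Control (SE 0.227, edgeR adjusted p = 3.43e-09).

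Ccl5, a chemokine typical of T cells, natural killer cells and macrophages, had the lowest mean level per kilobase of the 6 in both PMA groups, 6.43 and 1.3 CPM per kilobase. Its 11 Control reads gave 0.173, 0.172, 0.321, 0.154 and 0.656 CPM in libraries 1 to 5. PMA_ethanol libraries 1 to 4 had 2.74, 13.3, 5.81 and 2.86 CPM, and library 2 was the highest. A Dixon outlier test of the 18 sets of 1 gene in 1 group flagged no library. PMA_1002 libraries 1 to 6 had 0.509, 1.42, 1.8, 2.27, 0.811 and 0.678 CPM. The lowest PMA_1002 library lay under the highest Control library, and all libraries of both groups lay below PMA_ethanol. Ccl5 rose by 4.37 on the log2 scale (SE 0.607, edgeR adjusted p = 7.67e-06) and fell by 2.48 with PMA_1002 (SE 0.466, edgeR adjusted p = 0.00061). Without PMA_ethanol library 2 these changes were 3.49 (edgeR adjusted p = 2.15e-05) and -1.60 (edgeR adjusted p = 0.00871).

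The difference of Ccl5 between PMA_1002 and Control was the least firm of the set. It was 1.89 on the log2 scale (SE 0.671, edgeR adjusted p = 0.0252), with a pooled ratio of 3.44 (exact 95% binomial interval 1.81 to 7.23, counting error only). The call was lost with limma-voom (adjusted p = 0.139) and in edgeR without Control library 1, 2, 3 or 4 (edgeR adjusted p = 0.0532, 0.0543, 0.0536 and 0.0567).

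Ccr1, the receptor shared by Ccl3, Ccl5, Ccl6 and Ccl9, had 3.3, 1.72, 3.45, 1.7 and 1.97 CPM in Control libraries 1 to 5. PMA_ethanol libraries 1 to 4 had 218, 182, 209 and 200 CPM. PMA_1002 libraries 1 to 6 had 28.7, 46, 38.7, 34.2, 45.2 and 42.4 CPM. The groups did not overlap, and Ccr1 had the smallest adjusted p of the 6 genes in all 3 comparisons. It rose by 6.31 on the log2 scale with PMA_ethanol (SE 0.189, edgeR adjusted p = 1.18e-13). It fell by 2.36 with PMA_1002 (SE 0.136, edgeR adjusted p = 9.19e-09) and stayed 3.95 above Control (SE 0.182, edgeR adjusted p = 4.54e-11).

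**Figure D2:**
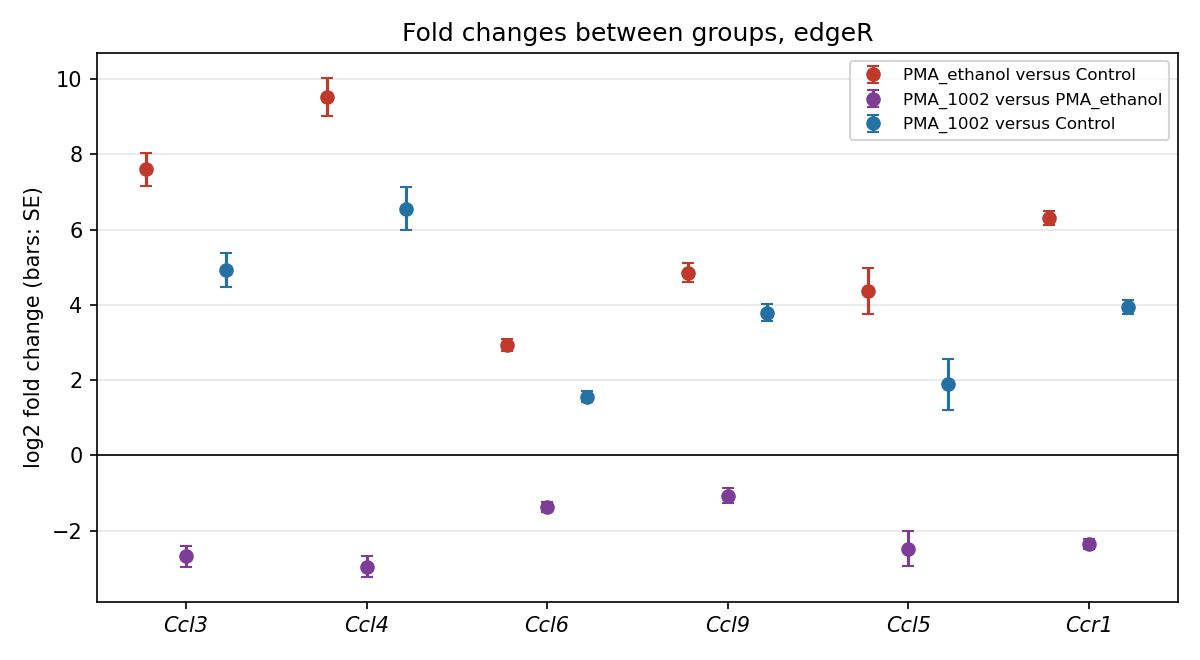
Log2 fold change of each gene in the 3 comparisons (points, edgeR) with its SE (bars). The rise with PMA_ethanol runs from 2.94 for Ccl6 to 9.52 for Ccl4, and the difference between PMA_1002 and PMA_ethanol from -1.07 for Ccl9 to -2.96 for Ccl4.

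The groups did not overlap in CPM for any of the 6 genes between PMA_ethanol and Control, or between PMA_1002 and PMA_ethanol, and for 5 of 6 between PMA_1002 and Control. Among all genes, every PMA_ethanol library lay above every Control library for 28.2%. Every PMA_1002 library lay below every PMA_ethanol library for 13%, and above every Control library for 20.2%. Within PMA_1002, library 1 was the lowest for Ccl3, Ccl4, Ccl9, Ccl5 and Ccr1, and library 5 for Ccl6.

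The part of the PMA rise still present in PMA_1002 is given as a description, with no test between genes. In mean CPM it was 12.6% for Ccl4, 15% for Ccl3, 16.2% for Ccl5 and 18.4% for Ccr1. Without PMA_ethanol library 2 the Ccl5 share was 27.2%. It was 29.4% for Ccl6 and 45.8% for Ccl9. On the log2 scale the same shares were 68.9%, 64.8%, 43.2%, 62.6%, 53% and 78.1% in that order. Ccl9 had the highest share on both scales, while Ccl4 had the lowest in CPM and the second highest in log2. The log2 shares of Ccl4, Ccl3 and Ccl5 rest on rises from 4, 15 and 11 Control reads. Without PMA_ethanol library 2 the log2 rise of Ccl5 was 3.49 in place of 4.37, which makes its log2 share larger too.

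To ask whether 2 genes changed unequally, the log2 ratio of their counts was taken within each library, where the scaling of the counts cancels. The 0.5 added to each count does not cancel, and it weighs most in Control libraries with few Ccl3 reads. The 5 ratios in 3 comparisons were tested with two-sided exact permutation tests, adjusted over these 15 tests. The mean ratio of Ccl6 to Ccl3 was 5.76, 0.93 and 2.38 in Control, PMA_ethanol and PMA_1002. It was lower by 4.83 in PMA_ethanol than in Control in log2 terms (a difference of -4.83, exact p = 0.00794, adjusted p = 0.0198). It was higher by 1.45 in PMA_1002 than in PMA_ethanol (exact p = 0.00952, adjusted p = 0.0204). Ccl3 thus rose by a larger factor than Ccl6 with PMA_ethanol and fell by a larger factor with PMA_1002. The difference between PMA_ethanol and Control lost its call without Control library 2, 3 or 5 (exact permutation adjusted p = 0.0536, 0.0536 and 0.0612). With 4 libraries against 4, the smallest two-sided exact p is 0.0286. The ratios of these groups stayed apart whichever Control library was left out, so the raw p was at this floor each time. Whether the call was kept then turned on the other ratios in the adjustment, and its loss says nothing of the libraries named. The Control ratio rests on 0 to 5 reads of Ccl3 per library.

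Ccl9 to Ccl6 compares the 2 neighbours with Control expression. Its means were -0.47, 1.51 and 1.78 in Control, PMA_ethanol and PMA_1002. No Control library exceeded 0.28, and no library of either PMA group was under 1.20. The rise of Ccl9 exceeded that of Ccl6 by 1.98 in PMA_ethanol (exact p = 0.00794, adjusted p = 0.0198) and by 2.25 in PMA_1002 (exact p = 0.00216, adjusted p = 0.0108). Both raw p-values are the lowest possible with these group sizes, and the first lost its call without Control library 2, 3 or 5 (exact permutation adjusted p = 0.0536, 0.0536 and 0.0612). Here too the raw exact p was at its floor of 0.0286 whichever Control library was left out, and only the adjustment differed. Between PMA_1002 and PMA_ethanol the ratio differed by 0.27, which did not pass (exact p = 0.29, adjusted p = 0.311).

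Ccl4 to Ccl3 went from -1.33 in Control to 0.12 in PMA_ethanol and -0.19 in PMA_1002. The difference of 1.45 between PMA_ethanol and Control did not pass (exact p = 0.0317, adjusted p = 0.0529), but did without Control library 1 (1.78, exact permutation adjusted p = 0.0476). That of 1.13 between PMA_1002 and Control did (exact p = 0.0152, adjusted p = 0.0284), but it was 0.57 with 2 in place of 0.5 added to each count (exact permutation adjusted p = 0.114). It also lost its call without Control library 2, 3 or 5 or any one PMA_1002 library (exact permutation adjusted p from 0.0536 to 0.0804). It rests on Control libraries with 0 to 5 reads of either gene. Between the PMA groups it differed by -0.32 (exact p = 0.0952, adjusted p = 0.13), or by -0.41 without PMA_1002 library 3 (exact permutation adjusted p = 0.017). That library held the highest ratio of its group, 0.28.

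Ccl5 to Ccl3 was -0.21 in Control, -4.02 in PMA_ethanol and -3.36 in PMA_1002. Both PMA groups were below Control, by a difference of -3.82 (exact p = 0.00794, adjusted p = 0.0198) and of -3.15 (exact p = 0.00216, adjusted p = 0.0108). The first lost its call without Control library 2, 3 or 5 (exact permutation adjusted p = 0.0536, 0.0536 and 0.0612). Again the raw exact p was at its floor of 0.0286 whichever Control library was left out, and only the adjustment differed. Between the PMA groups the difference of 0.67 did not pass (exact p = 0.319, adjusted p = 0.319). The Control ratio rests on 1 to 4 reads of Ccl5 and 0 to 5 of Ccl3 per library. Ccr1 to Ccl3 was 2.63, 1.30 and 1.72 in the 3 groups, and none of its 3 differences passed (exact adjusted p = 0.208 with PMA_ethanol against Control, 0.1 between the PMA groups, 0.282 with PMA_1002 against Control). That with PMA_ethanol passed without Control library 4 (difference -1.73, exact permutation adjusted p = 0.0476).

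**Figure D3:**
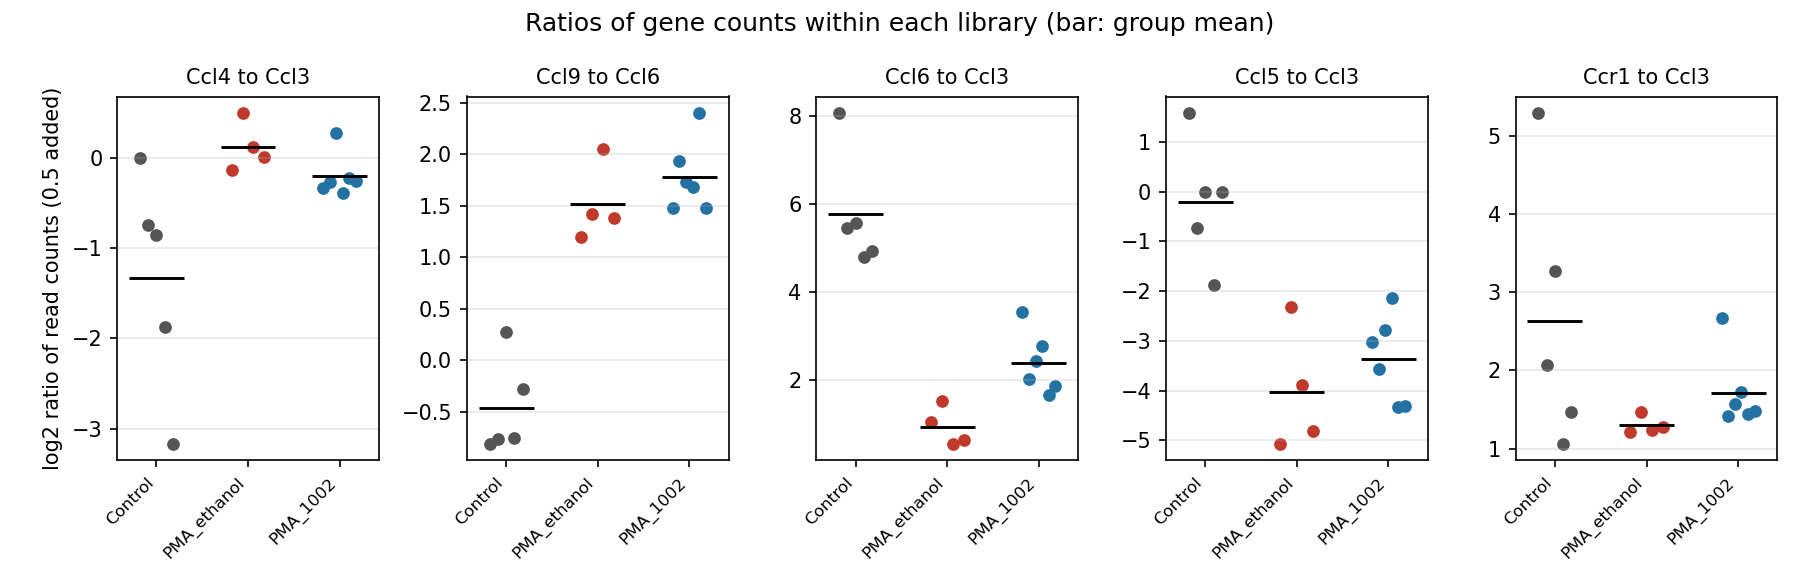
Log2 ratio of the read counts of 2 genes (0.5 added to each) in every library, by group, with bars at the means. Ccl9 to Ccl6 separates Control (up to 0.28) from both PMA groups (from 1.20), while Ccl6 to Ccl3 orders the groups as Control, PMA_1002 and PMA_ethanol.

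Per kilobase of exon, the ligand pool was recomposed as well as enlarged. The summed level of the 5 ligands was 17.8 ± 1.94 CPM per kilobase in Control (SD, n = 5), 489 ± 47.1 in PMA_ethanol (n = 4) and 141 ± 31.2 in PMA_1002 (n = 6). In Control, Ccl6 made up 66% ± 7.5 of it and Ccl9 28.5% ± 6.53, and Ccl3 and Ccl4 together were a small remainder (2.99% and 0.873%). In PMA_ethanol the shares were 30.4% ± 3.62 for Ccl9, 27.9% ± 1.97 for Ccl4, 22.3% ± 3.93 for Ccl3, 18.2% ± 3.35 for Ccl6 and 1.29% ± 0.981 for Ccl5. In PMA_1002, Ccl9 made up 50.4% ± 4.98 and Ccl6 25.2% ± 5.06, ahead of Ccl4 (11.9% ± 3.91) and Ccl3 (11.6% ± 3.43).

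The order of the per-length levels was firm in some places only. In Control, Ccl6 stood above Ccl9 in 5 of 5 libraries, while the ranges of Ccl3, Ccl5 and Ccl4 overlapped. In PMA_ethanol, Ccl9 was above Ccl4 in 3 of 4 libraries with overlapping ranges, and Ccl4 was above Ccl3 in 4 of 4. Ccl3 was above Ccl6 in 3 of 4, or in 2 of 4 when the coding transcript replaced the union of exons as the length. In PMA_1002, Ccl9 was above Ccl6 and Ccl6 above Ccl4 in 6 of 6 libraries without overlap, while Ccl4 was above Ccl3 in 1 of 6 despite the higher mean. Among 14957 genes ranked by mean CPM per kilobase, Ccl9 stood at places 8067, 313 and 584 in Control, PMA_ethanol and PMA_1002, and Ccr1 at 13416, 740 and 4068.

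**Figure D4:**
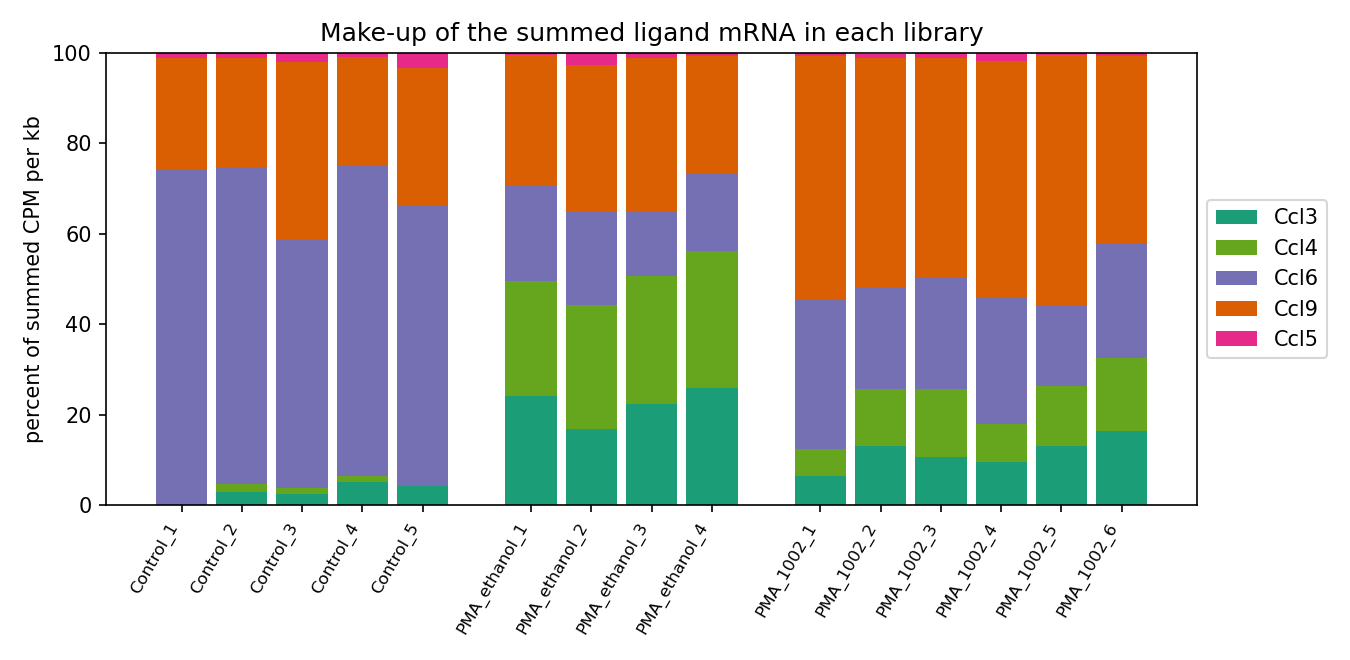
Share of each ligand in the summed CPM per kilobase of the 5 ligands, 1 bar per library. Ccl6 fills most of each Control bar (55% to 74.2%), and Ccl9 takes 41.6% to 55.4% of the PMA_1002 bars against 26.1% to 34.2% of the PMA_ethanol bars.

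The called neutrophil markers and most called monocyte and macrophage markers moved in the same direction as these genes. The summed CPM of 13 neutrophil markers was 27.6 to 38.6 in Control libraries, 1209 to 2567 under PMA_ethanol and 258 to 547 under PMA_1002. Of the 8 that passed the filter, 7 rose with PMA_ethanol and 7 fell with PMA_1002, and Mpo did neither. Ltf, Ngp and Elane had no read in Control and means of 0.379, 0.601 and 0.0219 CPM in PMA_ethanol. Ly6g stayed at a mean of 0.501 CPM in PMA_ethanol. Camp, which did not pass the filter either, had means of 0.196, 0.266 and 0.3 CPM in Control, PMA_ethanol and PMA_1002. S100a8 and S100a9 made up much of the PMA_ethanol sum, with means of 395 and 748 CPM against 2129 for all 13. The summed CPM of 11 monocyte and macrophage markers ran from 790 to 950 in Control, 1730 to 2454 in PMA_ethanol and 1256 to 1635 in PMA_1002. Of these, 7 rose and 2 fell with PMA_ethanol, and 6 fell and 1 rose with PMA_1002. For both marker lists, the shares over all genes were 32.5% higher and 35.9% lower, then 18% lower and 17% higher. The part of these markers in the changes of the 6 genes was not tested.

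For Ccl5 the T and natural killer cell markers stand beside the result. The summed CPM of 12 such markers ran from 27.4 to 53.7 in Control, 108 to 154 in PMA_ethanol and 31.1 to 51.1 in PMA_1002. Of 9 that passed the filter, Cd3d, Gzma, Gzmb and Prf1 rose with PMA_ethanol and the same 4 were those called lower in PMA_1002. Among all genes 32.5% rose and 18% were lower in these comparisons. Gzmb, a cytotoxic granule protease, made up most of the sum, at 78.4 ± 9.52 CPM in PMA_ethanol (SD, n = 4). Cd3e, a chain of the T cell receptor complex, had 6.45 ± 2.15 CPM in Control and 6.1 ± 1.59 in PMA_ethanol (edgeR log2 fold change -0.09, SE 0.246, adjusted p = 0.757). The part of these cells in the Ccl5 result was not tested. Of 4 eosinophil markers only Siglecf passed the filter, and their sum reached at most 5.01 CPM. Mast cell markers went the other way with PMA_ethanol, from 329 to 409 CPM in Control to 175 to 289, and lay at 257 to 334 in PMA_1002. The 7 Langerhans and dendritic cell markers summed to 609 to 872, 877 to 1194 and 705 to 884 CPM in Control, PMA_ethanol and PMA_1002, the 5 platelet markers to 39.2 to 59.7, 47.7 to 71.9 and 56.6 to 84.9.

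Of 6 other CC receptors listed, 5 passed the filter. All 5 rose in PMA_ethanol (median log2 fold change 2.60, against -0.07 for all genes), and 3 fell in PMA_1002 versus PMA_ethanol (median -0.79). All 5 stayed above Control in PMA_1002. The shares over all genes were 32.5% higher with PMA_ethanol, 18% lower between the PMA groups and 28.4% above Control in PMA_1002. Ccrl2, an atypical receptor that does not signal like the others, rose by 6.08 (SE 0.477, edgeR adjusted p = 5.32e-08) and fell by 2.61 with PMA_1002 (SE 0.341, edgeR adjusted p = 4.84e-05).

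Ccr3, which binds Ccl5 and is typical of eosinophils, went from 0.407 ± 0.365 CPM in Control to 5.05 ± 2.76 in PMA_ethanol and 1.8 ± 0.878 in PMA_1002 (SD, n = 5, 4 and 6). It rose by 3.42 on the log2 scale with PMA_ethanol (SE 0.494, edgeR adjusted p = 1.01e-05) and changed by -1.65 with PMA_1002 (SE 0.397, edgeR adjusted p = 0.00391). Ccr2, the monocyte receptor for other CC chemokines, rose by 2.60 (SE 0.203, edgeR adjusted p = 1.63e-08) and fell by 0.79 with PMA_1002 (SE 0.181, edgeR adjusted p = 0.00318). The 2 that did not pass between the PMA groups were the atypical receptors Ackr1 (0.37, SE 0.175, edgeR adjusted p = 0.116) and Ackr2 (-0.14, SE 0.148, edgeR adjusted p = 0.503), which take up chemokines without signalling. Ccr1l1, a close relative of Ccr1, did not pass the filter and had no read in Control.

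**Figure D5:**
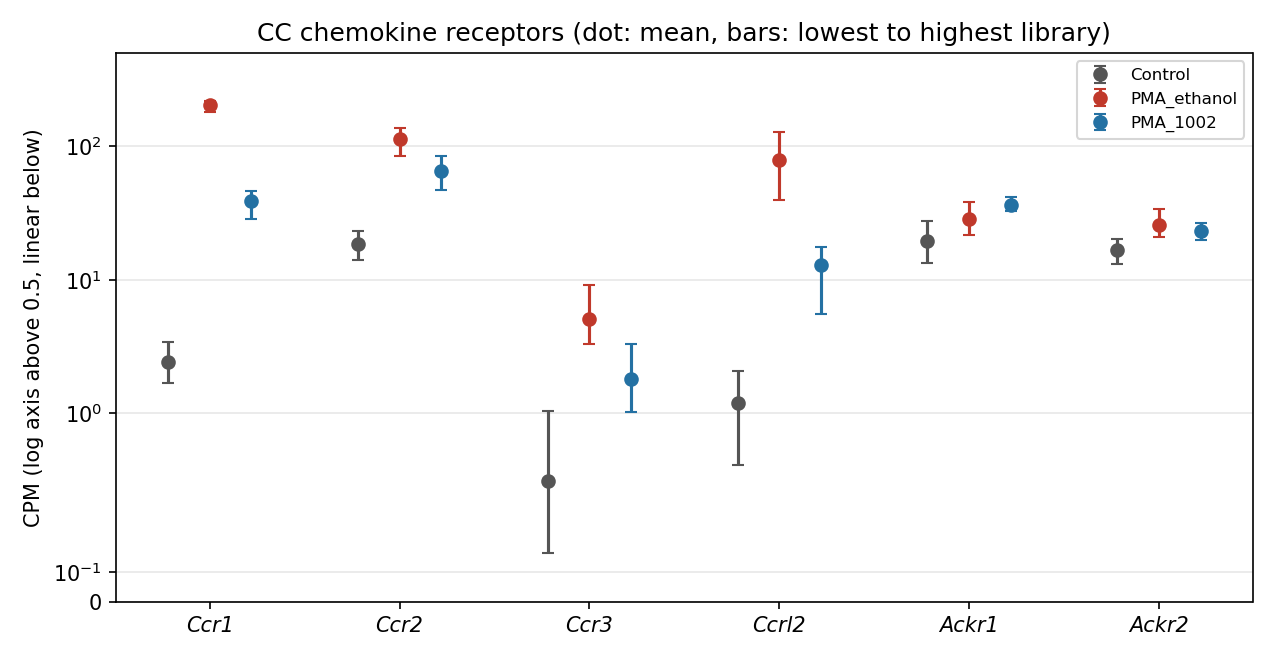
Mean CPM (dots) of Ccr1 and 5 other CC receptors in each group, with bars from the lowest to the highest library (log axis above 0.5 CPM). Ccr1 and Ccrl2 show the widest gaps between the PMA groups, and Ccr3, Ackr1 and Ackr2 overlap between them.

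All 4 other CC ligands listed rose with PMA_ethanol (median 3.93) and stayed above Control in PMA_1002 (median 2.62). The shares of all genes called so were 32.5% and 28.4%, and 18% were called lower in PMA_1002 than in PMA_ethanol. Ccl7 rose by 6.22 (SE 0.214, edgeR adjusted p = 8.41e-13) and Ccl11, an eosinophil attractant, by 4.19 (SE 0.254, edgeR adjusted p = 1.52e-09). Of these, 2 fell with PMA_1002, Ccl11 with a log2 change of -1.83 (SE 0.21, edgeR adjusted p = 1.05e-05) and Ccl7 with -0.99 (SE 0.158, edgeR adjusted p = 0.000156). Ccl24 changed by -0.79 (SE 0.311, edgeR adjusted p = 0.066) and Ccl8 by -0.33 (SE 0.173, edgeR adjusted p = 0.151), which did not pass.

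Among 21 genes that carry the signal below these receptors, 16 rose and 2 fell with PMA_ethanol (median 0.80), and 15 fell and 1 rose in PMA_1002 versus PMA_ethanol (median -0.46). Over all genes, 32.5% rose and 35.9% fell with PMA_ethanol, and 18% fell and 17% rose between the PMA groups. Pik3r5, a subunit of the phosphoinositide kinase that acts below G proteins, rose by 3.36 (SE 0.173, edgeR adjusted p = 4.87e-11). Rac2, a leukocyte GTPase, rose by 2.75 (SE 0.143, edgeR adjusted p = 4.03e-11) and changed by -1.38 with PMA_1002 (SE 0.128, edgeR adjusted p = 5.42e-07). Vav1, an exchange factor for Rac proteins, rose by 2.66 (SE 0.108, edgeR adjusted p = 2.17e-12). The 1 gene that rose with PMA_1002 was Arrb1, a beta-arrestin, which had fallen with PMA_ethanol.

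Of 8 genes for chemokine-binding proteoglycans and the trimming protease Dpp4, 5 rose and 2 fell with PMA_ethanol (median 0.65), and 4 fell and 1 rose between the PMA groups (median -0.24). For this list and the next, the shares over all genes were 32.5% higher and 35.9% lower, then 18% lower and 17% higher. Srgn, serglycin, the granule proteoglycan that binds chemokines for storage, rose by 4.78 (SE 0.226, edgeR adjusted p = 6.22e-11) and changed by -2.31 with PMA_1002 (SE 0.188, edgeR adjusted p = 3.6e-07). Sdc4, a cell surface syndecan, rose by 2.03 (SE 0.0959, edgeR adjusted p = 1.23e-11). All 13 listed regulators of chemokine transcription and mRNA rose with PMA_ethanol (median 2.82), and 12 fell with PMA_1002 (median -0.78), all but Cebpd. Nfkb2, an NF-kB subunit, rose by 3.09 (SE 0.0986, edgeR adjusted p = 1.71e-13). Junb, an AP-1 subunit, rose by 2.93 (SE 0.0886, edgeR adjusted p = 9.88e-14). Zc3h12a, an RNase that degrades cytokine mRNA, rose by 3.26 (SE 0.121, edgeR adjusted p = 7.47e-13). Between the PMA groups Rela, the main activating NF-kB subunit, changed by -0.72 (SE 0.078, edgeR adjusted p = 2.72e-06).

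Within 250 kb of the 5 ligands lay 29 other genes, of which 11 passed the filter, and 4 of these rose and 4 fell with PMA_ethanol, close to the shares over all genes (32.5% and 35.9%). Those that rose were Wfdc17, E230016K23Rik, Heatr6 and Ap2b1. E230016K23Rik, which overlaps Ccl6, rose from a mean of 0.522 to 2.25 CPM (edgeR adjusted p = 0.000381) and then changed by -1.20 on the log2 scale (SE 0.359, edgeR adjusted p = 0.0155), and Ap2b1 by 0.30 and then by -0.16 (edgeR adjusted p = 0.000576 and 0.0488). Wfdc17, 41.4 kb from Ccl4 and a small secreted protein of myeloid cells, went from 17.8 to 85.5 CPM with PMA_ethanol and to 37 in PMA_1002. Its log2 changes were 2.26 (SE 0.109, edgeR adjusted p = 1.52e-11) and then -1.21 (SE 0.0992, edgeR adjusted p = 1.7e-07). Mmp28, an epidermal metalloproteinase 67.4 kb from Ccl5, changed in the opposite order, by -1.33 (SE 0.132, edgeR adjusted p = 1.21e-07) and then by 1.51 (SE 0.128, edgeR adjusted p = 2.33e-07). Wfdc21, 84.4 kb from Ccl4, likewise changed by -0.51 (SE 0.131, edgeR adjusted p = 0.00228) and then 0.49 (SE 0.127, edgeR adjusted p = 0.00633). Heatr6 rose by 0.31 (SE 0.087, edgeR adjusted p = 0.00405).

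The genes most like each member over the 15 libraries were found by the root mean square (RMS) difference of log2 CPM, each gene centred on its own mean. This measure follows the 3 groups above all, and says nothing of shared control. Nearest to Ccl3 were Clec7a, the beta-glucan receptor (RMS difference 0.41), Osm, the oncostatin M gene (0.54), and Clec4d, a myeloid lectin (0.55), and Ccl4 came in at place 6 (0.62). Clec7a had 2.58 ± 1.51, 383 ± 69.6 and 55.7 ± 17.2 CPM in Control, PMA_ethanol and PMA_1002. Nearest to Ccl4 were Osm (0.52), S100a9, a neutrophil alarmin (0.58), and Cd300lf, a myeloid surface receptor (0.62), with Ccl3 at place 4.

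For Ccr1 the nearest genes were Trim30b (0.38), Timp1, a metalloproteinase inhibitor (0.39), and Slfn1 (0.40), while its ligands Ccl9, Ccl3, Ccl6 and Ccl5 came at places 44, 68, 414 and 432. Ccl6 was nearest to Itgam, the integrin chain of myeloid cells (0.19), Tgm2, tissue transglutaminase (0.25), and Trim30a (0.27). Ccl9 was nearest to Nrg1, a growth factor (0.27), Tnip3 (0.30) and Socs3, an inhibitor of cytokine signalling (0.37). Socs3 had 27.4 ± 3.28, 915 ± 31.5 and 368 ± 60.6 CPM. Ccl5 was nearest to Ctla4, an inhibitory T cell receptor (0.46), Mmp12, a macrophage elastase (0.48), and the antisense gene Gm16685 (0.54), whose counts are uncertain without the strand setting.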

How the data were processed

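Whole-ear polyadenylated RNA was sequenced in 15 libraries, and read counts per gene were analysed. The authors deposited raw counts per Ensembl gene. The submitters' processing notes name the GRCm38 build and the tools STAR 2.5, HTSeq, FastQC 0.11.5 and MultiQC 0.8. Per the labels' protocols the library kit marks strand, while the sources used here give neither the strand setting of HTSeq nor the annotation release. Symbols came from GENCODE M21 (GRCm38), which named 48349 of the 48795 listed genes. Rows that name no gene were left out. Reads in no gene were 28.5% to 32.8% of all reads, which includes the reads with several positions (16% to 20.1%).

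Genes were filtered with filterByExpr by group, scaled by TMM and tested with edgeR 4.0.16 (robust quasi-likelihood, R 4.3.3) on all 15 libraries with group as the only term, adjusted by Benjamini-Hochberg. SEs were derived from the log2 fold change and its F value. Log2 CPM used a prior count of 2. Within-library ratios added 0.5 to each count and were tested by full enumeration. Test code was checked on simulated data. All 31 pairs of libraries within groups differed beyond sampling noise (chi-square per degree of freedom from 2.93 to 27). DESeq2 1.42.0 and limma 3.58.1 were alternatives, with other scalings, filters and left-out libraries.

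The genes and lists were chosen with earlier results of these data known. From each list up to 3 called genes per comparison with the smallest adjusted p were named, with the 3 most like genes per member and up to 4 called protein-coding neighbours of the ligand cluster. Results for 1 gene and for the surroundings of Ccr1 are not reported here. Arrb1, Ackr1, Ackr2, Ccr1l1, Ccl8, E230016K23Rik, Ap2b1, Cebpd, Cd3d, Cd3e, Mpo, Ly6g, Ltf, Camp, Ngp, Elane and S100a8 were named outside this rule, after their values were seen.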

Additional observations from a re-analysis of the deposited data

How the results depend on the processing

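Of 18 fold changes of the 6 genes, 17 kept their direction and call in all alternatives run, and 478 of 483 alternative values in all did. The exception was Ccl5 between PMA_1002 and Control, which was 1.60 with limma-voom and ran from 1.68 to 2.28 when single libraries were left out. Under limma-voom the cause was not tested. Ccl5 fell under the low-count filter with only the 2 groups, with the replicate block and with the same libraries unblocked, so these gave no value. Of the ratios, 143 of 165 alternative values kept their call. Ccl4 to Ccl3 between PMA_1002 and Control was 0.57 with 2 added to each count. Without single libraries it ran from 0.67 to 1.46, from -0.41 to -0.19 between the PMA groups and from 0.99 to 1.78 between PMA_ethanol and Control. Between PMA_ethanol and Control without single libraries, Ccl5 to Ccl3 ran from -4.39 to -3.37 and Ccl6 to Ccl3 from -5.07 to -4.26. Ccl9 to Ccl6 ran from 1.80 to 2.16 and Ccr1 to Ccl3 from -1.73 to -0.67. Over all alternatives Ccl6 to Ccl3 came as close to zero as -4.08. The hair follicle covariate, the unblocked fit, the coding-transcript length and the Ccl5 share without PMA_ethanol library 2 were chosen after seeing the data.

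Most same-numbered libraries did not deviate together (correlations from -0.533 to 0.579, over 0.1 in 1 of 4, 1 of 4 and 0 of 5 pairs). The value of 0.579 was that of the libraries numbered 1 in the PMA groups. With so few pairs, this cannot decide whether the numbers pair samples. With the replicate block, 2504 genes (972 higher, 1532 lower) were called between the PMA groups, against 5244 in all 15 libraries and 3538 in the same libraries unblocked. The block changed no call of the 6 genes where it could be fitted. At most 1 sample in a comparison correlated best with its own number. Low Control counts limit the folds of Ccl3, Ccl4 and Ccl5.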
